A study of Canis lupus familiaris with 40 samples.

Results

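This report describes 37 canine genes that were restricted to neutrophils, against monocytes, in the blood of healthy dogs. Their median level in polymorphonuclear myeloid-derived suppressor cells (PMN-MDSC) was at least 0.5 of the mean in healthy neutrophils, which is called kept here. They were chosen by their measured CPM, the counts of a gene scaled by the total of its library. A gene had to be below 20000 CPM in every library, to have a mean of at least 20 CPM in neutrophils of healthy dogs (H PMN), and to have a mean there at least 20 times that of monocytes of healthy dogs (H Mono). These limits left 115 neutrophil-restricted genes out of 24580 gene IDs. In 37 of them the median of the PMN-MDSC libraries was at least 0.5 of the H PMN mean, and these are the members. In the other 78 it was lower, and these are called the low set. The limit had no upper bound, so kept members include raised ones. In 22 of the 37 members the PMN-MDSC median was above the H PMN mean, and in 13 it was at least 2 times that mean. The ratio ran from 0.5003 to 62.2 over the members. Since H PMN, H Mono and PMN-MDSC values chose the members, levels in those populations are a description and were not tested.

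Neutrophils are short-lived phagocytes that leave the bone marrow mature, carrying granules of antimicrobial proteins and receptors for chemoattractants and cytokines. Monocytes arise from a shared progenitor, and many genes differ in level between these cell types. Myeloid-derived suppressor cells are immature or altered myeloid cells that accumulate in cancer and can restrain T cells. Their polymorphonuclear form shares surface markers with neutrophils but floats with mononuclear cells on a density gradient, whereas ordinary neutrophils sink to the pellet.

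The study sequenced RNA of cells sorted from the peripheral blood of dogs with cancer and of healthy dogs, in 40 libraries. Dogs with cancer gave 9 PMN-MDSC libraries, 10 neutrophil libraries (C PMN), 5 libraries of monocytic MDSC (M-MDSC) and 8 monocyte libraries (C Mono). Healthy dogs gave 5 H PMN and 3 H Mono libraries. In the study's gates all cells were CD5- CD21- CD11b+. Neutrophils came from the pellet as MHCII- CADO48A+ cells, CADO48A being an antibody to an unidentified antigen of canine neutrophils. The other populations came from the mononuclear layer, PMN-MDSC as MHCII- CD14- CADO48A+, M-MDSC as MHCII- CD14+ CADO48A- and monocytes as MHCII+ CD14+ cells. The populations are therefore defined by density and surface markers, and the labels give no age, breed, tumor type or treatment. The labels do not tie a library to a dog. The study writes of PMN-MDSC against neutrophils of the same patient, so libraries of these populations likely share dogs. The fits could not use such pairs, and the p-values treat the libraries as independent. The study's text counts fewer PMN-MDSC and C PMN libraries than the files hold without naming those left out, and all were kept.

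Genes are listed by Ensembl ID alone, and a symbol was found for 0 of the 24580. For that reason 4 members are given by ID, and the others by rank, from 1 for the highest mean CPM in H PMN to 37 for the lowest. The labelled cell types could not be checked against known marker genes. As a stand-in from the data, 580 genes were restricted to monocytes by the same limits with H PMN and H Mono exchanged, and their summed CPM is given where it moves with a result.

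Libraries held from 4229857 to 60473238 gene counts, and 2 were below 10000000. They were C PMN replicate 7, with 4229857 counts, and PMN-MDSC replicate 9, with 6299310. Of the 37 members, 29 had at least 10 counts in the first and 27 in the second, in which 4 members had 0 counts. Library titles began with GAR4079 or PAT4694, a difference whose meaning the labels do not give, and every library of healthy dogs had the first prefix.

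By the median library, the members took up more of the counts in PMN-MDSC than in any other population. Summed over the 37 genes, the 5 H PMN libraries ranged from 8618 to 11948 CPM (median 9596). The 10 C PMN libraries ranged from 4083 to 30591 CPM (median 15820), and the 9 PMN-MDSC libraries from 12317 to 52171 CPM (median 45365). The PMN-MDSC and H PMN ranges did not overlap, and the PMN-MDSC and C PMN ranges did. PMN-MDSC medians chose the members and genes with low ones were left out, so nothing is read from the high PMN-MDSC sum. In the monocytic populations the sum was far lower, at 988 to 1758 CPM in M-MDSC (n = 5, median 1475), 191 to 535 CPM in C Mono (n = 8, median 395) and 249 to 323 CPM in H Mono (n = 3, median 252). Every M-MDSC library thus lay above every monocyte library and below every neutrophil library. The monocyte-restricted genes were also higher in PMN-MDSC, with a median of 16851 CPM against 3648 CPM in C PMN and 1868 CPM in H PMN. The low set was lower, with medians of 9961, 28139 and 34395 CPM. The first set was chosen for low H PMN values and the second for low PMN-MDSC medians relative to H PMN. Nothing is therefore read from either difference from H PMN, or from the low level of the low set in PMN-MDSC. The part of monocyte-lineage RNA in the member sums was not tested. In these bulk samples, fewer cells of a type and less RNA per cell cannot be told apart.

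**Figure D1:**
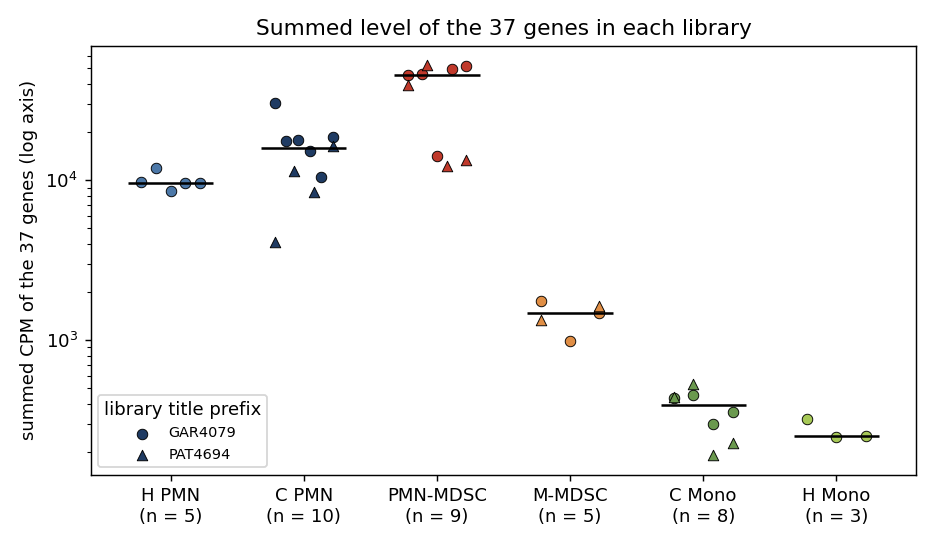
Summed CPM of the 37 genes in each library (log axis) by population, with circles for libraries of title prefix GAR4079, triangles for PAT4694 and a line at the median. PMN-MDSC libraries lie either at 39110 CPM and above or at 14213 CPM and below, and the 5 M-MDSC libraries lie between the neutrophil and the monocyte libraries.

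The PMN-MDSC libraries did not form an even series, and the other sums differed with them. Their 9 sums were 12317, 13390, 14213, 39110, 45365, 46055, 49809, 51486 and 52171 CPM. The lowest 3 belonged to replicates 8, 9 and 3, and all 3 lay within the range of C PMN. In the other 6 the monocyte-restricted genes summed to 13055 to 21268 CPM and the low set to 7357 to 12695 CPM. In replicate 3 the low set summed to 34661 CPM and the monocyte-restricted genes to 2645 CPM, and in replicate 8 to 26427 and 6089 CPM. In C PMN the low set had a median of 28139 CPM and the monocyte-restricted genes ranged from 1479 to 8218 CPM, so both libraries lay within the C PMN range on all 3 sums. Replicate 9, the shallow library, had 580 CPM of the low set and 25001 CPM of the monocyte-restricted genes, the lowest and the highest among PMN-MDSC. It also held the lowest PMN-MDSC value of 30 of the 37 members. The part of cell composition and depth in these values was not tested.

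By group means, a few members made up most of the sum in PMN-MDSC. By mean CPM, the 3 highest members held 65.2% of the summed level there, against 39.6% for the 3 highest in H PMN and 40.1% for the 3 highest in C PMN. Within single PMN-MDSC libraries the 3 highest held a median of 69.3%, with 37.9% in replicate 8, 47.9% in replicate 3 and 87.6% in replicate 9. In H PMN libraries they held 38.1% to 47.3%. Per unit of gene length, in TPM, the highest members in H PMN were rank 1 (1348 ± 182 TPM, SD, n = 5) and rank 7 (775 ± 194 TPM). In PMN-MDSC they were rank 6 (4772 ± 3664 TPM) and ENSCAFG00000023335, rank 13 (4456 ± 3182 TPM, SD, n = 9). The order of the members by level was thus not the same in both populations, and the PMN-MDSC values carried a large spread.

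**Figure D2:**
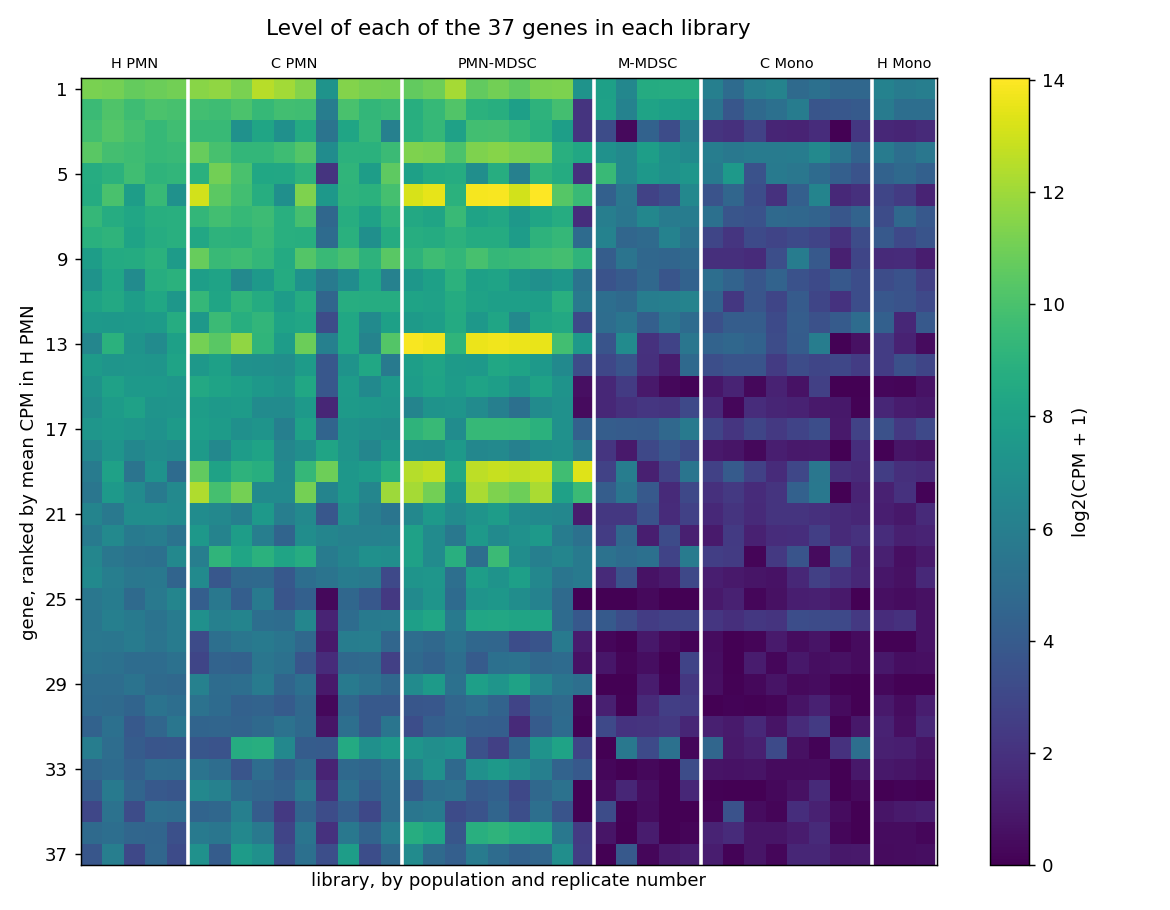
Level of each of the 37 genes, as log2(CPM + 1), in each of the 40 libraries, with genes ranked from top to bottom by mean CPM in H PMN and libraries grouped by population. Ranks 13, 6 and 19 have the highest medians over PMN-MDSC libraries (12419, 9319 and 6543 CPM), and the pair of shallow libraries appear as dark columns, the seventh of C PMN and the last of PMN-MDSC.

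Against C PMN, the members were divided in PMN-MDSC. The mean CPM was higher in PMN-MDSC for 18 members and lower for 19, with ratios from 0.411 to 9.00 and a median of 0.98. It was at least 2 times higher for 11 members and at most 0.5 times for 1. No member separated the libraries of both populations without overlap, and 0 of the 78 genes of the low set did. The share over all genes is not given here, so nothing is read from this count. The 4 members given by ID are those with the 2 largest and the 2 smallest log2 fold changes in this comparison.

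ENSCAFG00000029461, rank 19, had 28.4, 41.7, 56.8, 140 and 258 CPM in the 5 H PMN libraries. It ranged from 101 to 1958 CPM in C PMN (median 440) and from 348 to 10255 CPM in PMN-MDSC (median 6543). In PMN-MDSC 7 libraries were above every C PMN library, and replicates 3 and 8 were at 348 and 838 CPM, within the C PMN range. The fitted log2 fold change against C PMN was 2.75 (SE 0.96). It moved with the shallow libraries, to 4.38 without C PMN replicate 7, 1.49 without PMN-MDSC replicate 9 and 3.05 without both.

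ENSCAFG00000023335, rank 13, had 85.3, 107, 149, 246 and 502 CPM in H PMN. It ranged from 68.1 to 3267 CPM in C PMN (median 903) and from 189 to 15206 CPM in PMN-MDSC (median 12419). The libraries of PMN-MDSC were either at 12034 CPM and above or at 878 CPM and below, the low ones being replicates 3, 8 and 9. The log2 fold change was 2.64 (SE 0.73).

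ENSCAFG00000001856, rank 5, stood at the other end. It had 409, 525, 558, 594 and 845 CPM in H PMN, 3.31 to 2075 CPM in C PMN (median 505) and 3.02 to 559 CPM in PMN-MDSC (median 380). The lowest value of each of the last 2 populations came from its shallow library. The log2 fold change was -1.56 (SE 0.64).

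ENSCAFG00000013867, rank 18, was the most even of the 4. It had 89.5, 91.5, 102, 118 and 159 CPM in H PMN, 84.2 to 288 CPM in C PMN (median 161) and 55.6 to 181 CPM in PMN-MDSC (median 114). The log2 fold change was -1.30 (SE 0.54), and it was -0.31 without C PMN replicate 7 and -0.04 by DESeq2.

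**Figure D3:**
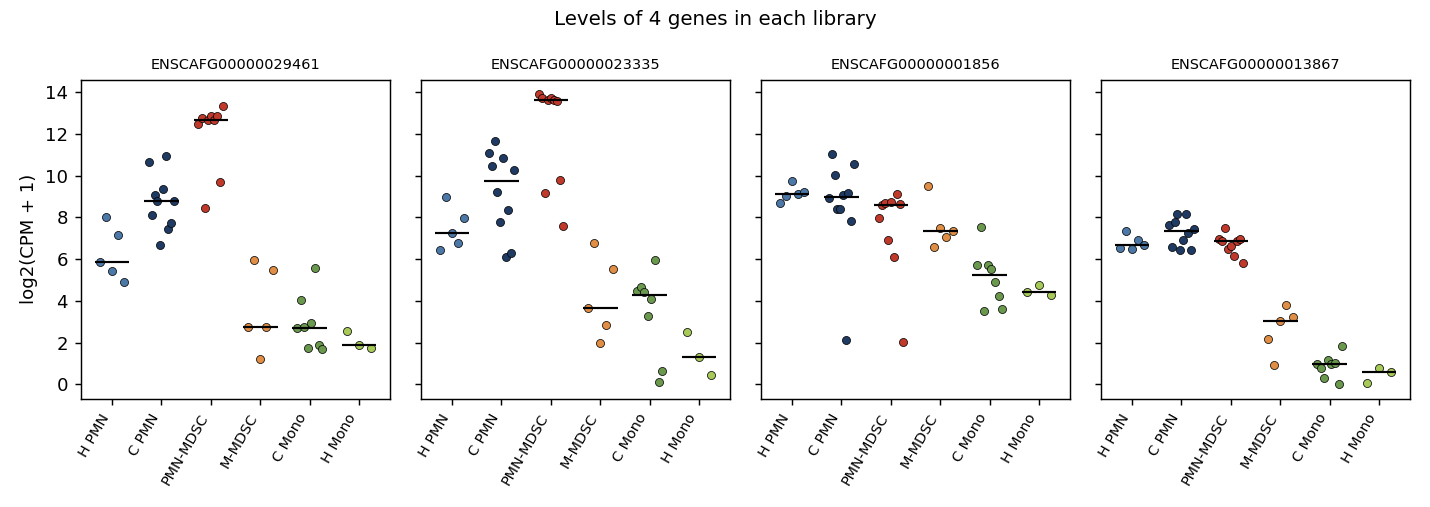
Levels of the 4 genes given by ID, as log2(CPM + 1), in every library by population, with a line at the median. The first 2 genes have medians of 6543 and 12419 CPM in PMN-MDSC, with single libraries far below, and the last 2 have medians of 380 and 114 CPM there, against 505 and 161 CPM in C PMN.

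In the edgeR quasi-likelihood fit of PMN-MDSC against C PMN, with FDR over all 10278 genes tested, 6 members were called higher and 0 lower at an FDR of at most 0.05. Of all genes, 8.47% were called higher and 1.57% lower. The 6 were ranks 13, 17, 26, 29, 33 and 36. PMN-MDSC medians chose the members, so nothing is read from these counts. They were 4 to 9 higher and 0 to 1 lower with single libraries left out, where 6.35% to 15.2% of all genes were called higher and 0.567% to 4.74% lower. Without the 2 shallow libraries, 9 members were higher and 4 lower, beside 14.4% and 8.15% of all genes. Within prefix GAR4079 they were 6 and 3, beside 12.6% and 5.6%, and within PAT4694 0 and 0, beside 0% of all genes in each direction.

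Monocytes and neutrophils of dogs with cancer played no part in choosing the members, other than through the upper CPM limit, and the difference between lineages held in them. All 37 members were higher in C PMN than in C Mono by the edgeR quasi-likelihood test at an FDR of at most 0.05, beside 31.5% of the 11261 genes tested. The log2 fold changes ran from 4.47 (rank 26, SE 0.49) to 9.13 (rank 18, ENSCAFG00000013867, SE 0.95), with a median of 6.54 against -0.03 over all genes. All 37 were called higher under every alternative and with each library left out. Scaled by library size alone, the median of all genes moved to -1.08 and that of the members to 5.36.

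The ratio of the mean CPM in C PMN to that in C Mono was at least 10 in 37 of 37 members and at least 20 in 28 of them, and its median was 41.1 (range 10.8 to 175). In 26 members every C PMN library was above every C Mono library, against 2.05% of the genes with a mean of at least 1 CPM. Without C PMN replicate 7, a shallow library, this was so for 35 members. The share of genes was not recomputed for that case, and the rise is not read as a trait of the members. In the low set the test called 78 of 78 genes higher, with a median log2 fold change of 6.61, and 32 of 78 had no overlap. The kept and low sets were therefore alike in counts called for this contrast, and their difference was not tested.

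M-MDSC, sorted as monocytic cells, held more transcript of some members than C Mono. By the edgeR quasi-likelihood test at an FDR of at most 0.05, 7 of 37 members were higher and 0 lower, beside 0.505% of the 11874 genes tested that were called higher and 0.253% called lower. Neither population chose the members. The median log2 fold change was 1.38 over the members and -0.00 over all genes, and 33 of 37 were above 0. At an unadjusted p below 0.05, in either direction, there were 18 members, beside 13.7% of all genes tested.

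**Figure D4:**
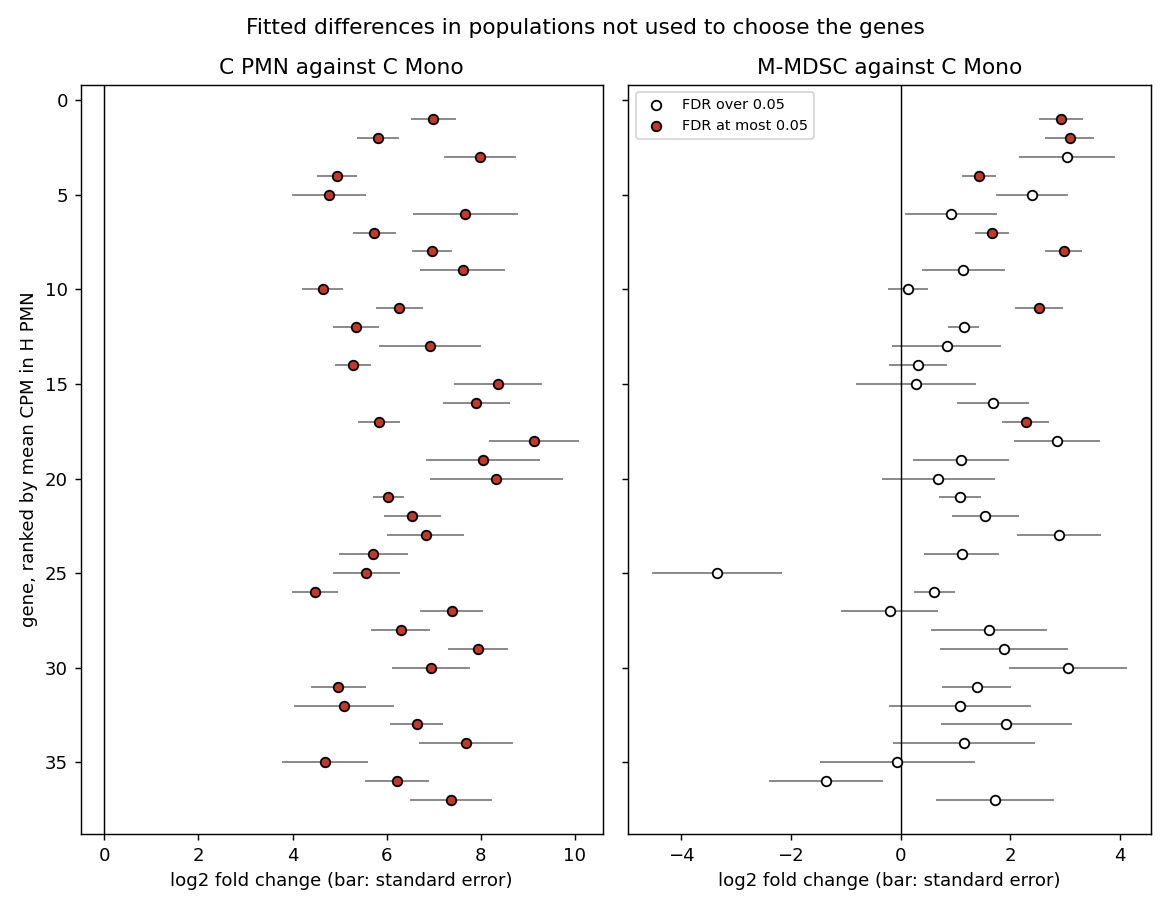
Fitted log2 fold change of each of the 37 genes, ranked by mean CPM in H PMN, in C PMN against C Mono (left) and M-MDSC against C Mono (right), with bars for the standard error and filled points for an FDR of at most 0.05. All 37 points are filled on the left, from 4.47 to 9.13, and 7 are filled on the right, from 1.43 to 3.08.

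Rank 8 had the smallest FDR of the 7 by that test. It had 23.6, 27.5, 39.3, 73.3 and 74.4 CPM in the 5 M-MDSC libraries and 2.97 to 8.56 CPM in C Mono (median 6.54). The ranges did not overlap, and the log2 fold change was 2.97 (SE 0.34, edgeR FDR 0.0033).

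Rank 1, the highest member in H PMN, had 88.1, 247, 396, 404 and 431 CPM in M-MDSC and 24.3 to 77.6 CPM in C Mono (median 31.8). Its log2 fold change was 2.93 (SE 0.40, edgeR FDR 0.0073). Rank 2 had 73.4, 220, 244, 257 and 280 CPM in M-MDSC and 12.1 to 57.9 CPM in C Mono (median 20.7), a log2 fold change of 3.08 (SE 0.44, edgeR FDR 0.0088). In both, the lowest M-MDSC library was apart from the other 4 and still above all C Mono libraries. The other 4 called members, ranks 4, 7, 11 and 17, had log2 fold changes of 1.43 to 2.52.

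The 4 members given by ID were not among the 7. ENSCAFG00000013867 had a log2 fold change of 2.85 (SE 0.79, edgeR FDR 0.112) and ENSCAFG00000001856 one of 2.39 (SE 0.65, edgeR FDR 0.110). With edgeR, ENSCAFG00000029461 was at 1.10 (edgeR FDR 0.615) and ENSCAFG00000023335 at 0.84 (edgeR FDR 0.764). The last 2 are the members with the largest fold change in PMN-MDSC, and their M-MDSC libraries overlapped those of C Mono. The lowest log2 fold change was that of rank 25, -3.34 (SE 1.18, edgeR FDR 0.205), and it was -5.32 without M-MDSC replicate 3. Rank 25 had only 0 to 9 counts per library in M-MDSC and 0 to 53 in C Mono, so these values rest on few reads.

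The number of members called changed with the libraries used. The count was 0 within prefix GAR4079, with 3 M-MDSC and 4 C Mono libraries, where edgeR called 0 of all genes and 769 genes, 19 of them members, had an unadjusted p below 0.05. It was 1 within PAT4694, with 2 and 4 libraries, beside 0.0333% of all genes, and 6 with the prefix as a term, beside 0.505%. The 7 fold changes were above 0 in both prefixes, from 1.58 to 2.89 in GAR4079 and from 1.17 to 3.95 in PAT4694. The 7 were picked for high values in these same libraries, so nothing is read from the shared sign. Leaving out single libraries gave 3 to 8 members, beside 0.132% to 0.875% of all genes, with 4 without M-MDSC replicate 3 and 3 without replicate 4 or replicate 5.

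Levels of the members in M-MDSC were a small part of those in neutrophils. The M-MDSC mean was 0.337% to 36.2% of the C PMN mean, with a median of 7.44%. Every C PMN library was above every M-MDSC library in 12 of 37 members. This was so for 1.18% of genes with a mean of at least 1 CPM. Without C PMN replicate 7, a shallow library, there were 28 such members. The share of genes was not recomputed for that case, so nothing is read from the rise. Against C Mono, 7 members had every M-MDSC library above every C Mono library, beside 0.789% of genes with a mean of at least 1 CPM.

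The low set moved alongside the members in this contrast. It had 8 genes called higher out of the 71 of 78 that passed the filter on low counts, and 13 of 78 without overlap. Together both sets held 15 of the 60 genes called higher in M-MDSC. The monocyte-restricted genes summed to 95788 to 129760 CPM in M-MDSC and 128868 to 160256 CPM in C Mono, lower on average where the members were higher. Whether neutrophil-lineage cells or RNA in the M-MDSC sort had a part in these values was not tested.

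Cancer status and title prefix were compared among neutrophils. In C PMN against H PMN, edgeR called 0 of 10871 genes (0%) in each direction and 0 members, with 1002 genes (9.22%) and 15 members at an unadjusted p below 0.05. H PMN chose the members, so nothing is read from these counts. The log2 fold changes ran from -1.12 (rank 3) to 4.37 (rank 20), with a median of 0.48 against 0.09 over all genes, and 30 of 37 were above 0. Scaled by library size alone, the medians were 0.14 and -0.27, and 20 members were above 0. The median of the members was 0.28 without C PMN replicate 1. DESeq2 called 6 members higher, beside 1.99% of all genes, limma voom 2, beside 0.708%, and edgeR within prefix GAR4079 3, beside 0.703%. Rank 20 had 45.2, 52.6, 94.8, 106 and 191 CPM in H PMN and 79.0 to 5184 CPM in C PMN (median 560). In C PMN it was at 172 CPM or below in 5 libraries, within the H PMN range, and at 948 CPM or above in the other 5.

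Between C PMN libraries of prefix PAT4694 (n = 4) and GAR4079 (n = 6), edgeR called 0 of 10303 genes (0%) in either direction and 0 members, with 1264 genes (12.3%) and 3 members at an unadjusted p below 0.05. DESeq2 called 589 genes and 0 members. The median log2 fold change of the members was -0.49, and 7 of 37 were above 0. Member sums ranged from 4083 to 16347 CPM in the first prefix and from 10437 to 30591 CPM in the second, so they overlapped.

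The members varied more between libraries in C PMN and PMN-MDSC than in H PMN, as did other genes. The median coefficient of variation over the 37 was 31.2% in H PMN (n = 5), 60.7% in C PMN (n = 10) and 61.0% in PMN-MDSC (n = 9). For all 3853 genes with a mean of at least 20 CPM in H PMN it was 20.9%, 46.8% and 49.7%. All H PMN libraries had prefix GAR4079, while C PMN and PMN-MDSC mixed both prefixes and held the shallow libraries. The parts of cancer status, prefix and depth in this spread were not tested. In PMN-MDSC the low set was more variable, with a median of 96.1%. As a description, the median Pearson correlation of log2(CPM + 1) over all 666 pairs of members was 0.63 across the 9 PMN-MDSC libraries and 0.54 across the 10 C PMN libraries. It was 0.13 across the 5 H PMN and 0.01 across the 5 M-MDSC libraries. Members of a library share its depth and cell composition.

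At the limits of the rule, values were close on both sides. The smallest PMN-MDSC median relative to the H PMN mean was 0.5003 (rank 35) and 0.510 (rank 3) among members, and 0.493 in each of the nearest 2 genes outside. The smallest ratio of H PMN to H Mono was 20.04 (rank 4) and 20.1 (rank 12) among members, and 19.7 and 19.6 just outside. The upper CPM limit alone kept out 5 further genes. With each of the 17 libraries of H PMN, H Mono and PMN-MDSC left out in turn, 24 of the 37 members were chosen every time.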

How the data were processed

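Per the study's methods, Smart-seq2 libraries were sequenced as read pairs, trimmed with skewer, aligned with HISAT2 to CanFam3.1 plus ERCC spike-ins, marked for duplicates with Picard and counted with featureCounts on exons of Ensembl genes. The counts were deposited by the authors without normalization. The authors scaled these counts by library total to give the deposited CPM, which was checked. Deposited TPM also came from the authors, and the gene lengths behind it are not given in the sources used here. A further deposited CPM table differed in 0 values and was not used.

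Members were found from CPM, and the members and lists were chosen with earlier results of these data known. Counts were fitted per comparison with edgeR 4.0.16 (TMM, filterByExpr, quasi-likelihood test) in R 4.3.3, with Benjamini-Hochberg FDR over all genes tested, and calls at 0.05. The scripts were tested on simulated data. Alternatives used DESeq2 1.42.0, limma 3.58.1 voom, other scalings, no filter, the title prefix, and left-out libraries. Groups came from the labels. Reads were not counted as molecules. Genes were to be named by symbol through several rules. With no symbols, at most 2 IDs of each direction were allowed, and those of PMN-MDSC against C PMN were taken, a choice made after values were seen. The planned marker lists, pathway lists and promoter motifs were not analysed here for the same reason.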

Additional observations from a re-analysis of the deposited data

Results flagged for a closer look

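Single libraries stood apart from the others of their population for 5 members, by Dixon's test at its 95% critical value, over 60 sets of values (member sums, and the CPM of the members described, in populations of 4 to 10 libraries). Of these, 7 were singled out. For independent sets of normally distributed values, chance alone singles out about 1 set in 20. The values here were untransformed CPM and the sets shared libraries, so that rate need not hold and 7 is not read as an excess.

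In C Mono, 1 library was high for ENSCAFG00000029461 (46.7 CPM, the next 15.3), for ENSCAFG00000023335 (61.5, the next 24.6) and for ENSCAFG00000001856 (187, the next 51.9). In M-MDSC, 1 library was high for ENSCAFG00000001856 (714 CPM, the next 176) and for rank 4 (233, the next 136), and 1 was low for rank 2 (73.4, the next 220). In C PMN, 1 library was low for rank 2 (61.2 CPM, the next 631).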

How the results depend on the processing

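No paired analysis was possible because the labels give neither replicate numbers nor the dog behind a library. The members numbered 37, and 34 to 44 with single libraries left out, 67 with a fold limit of 10, 17 with a limit of 50 and 22 with a share of 1. All 37 stayed called in C PMN against C Mono throughout. In M-MDSC against C Mono 7 were higher, with 12 by DESeq2 (2.34% of all genes), 0 within prefix GAR4079, 1 within PAT4694, and 3 to 8 with single libraries left out. In PMN-MDSC against C PMN 6 were higher and 0 lower, with 10 and 3 by DESeq2 (14.4% and 7.59% of all genes), 11 and 10 by limma voom (23.7% and 19.97%), 6 and 3 within GAR4079, 0 higher within PAT4694, 4 lower without the 2 shallow libraries, and 4 to 9 higher and 0 to 1 lower with single libraries left out. In C PMN against H PMN 0 were higher, with 6 by DESeq2, 2 by limma voom and 3 within GAR4079. The log2 fold change of ENSCAFG00000023335 in M-MDSC against C Mono, 0.84, ranged from -0.19 (without M-MDSC replicate 2) to 1.396 with single libraries left out. The causes were not tested. Leaving out the upper CPM limit (42 members) and using PMN-MDSC of prefix PAT4694 alone (37) were chosen after seeing the data. An equal count does not mean the same genes, and the overlap with the main 37 is not given here. Depth limits the 2 shallow libraries most.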
